A study of Homo sapiens with 14 samples.

Results

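The 44 genes described here encode the proteins that license replication origins and copy DNA at the fork. They were chosen by name, as members of the MCM, GINS, ORC, RFC, polymerase and RPA families and their loading and fork partners. No measured value was the rule of choice, but earlier results of these data were known when the list was made. All 44 were found among the 39293 gene identifiers of the deposited count table, and all 44 passed the filter on low counts that left 15756 genes for testing. Gene expression was measured by poly(A) RNA-seq in 14 libraries of MOLM14, an acute myeloid leukaemia line of human origin that depends on an activated FLT3 receptor kinase, which gilteritinib inhibits. The FGF2 early arm held 4 flasks of a gilteritinib-resistant line kept with fibroblast growth factor 2 (FGF2) at 10 ng/mL, and the FL early arm held 4 flasks of a resistant line kept with FLT3 ligand (FL) at 10 ng/mL. Both lines had received gilteritinib at 100 nM for 48 hours. The acute arm held 3 cultures of parental MOLM14 cells given the same drug exposure, 1 without ligand, 1 with FGF2 and 1 with FL at 10 ng/mL, and acute values are listed in that order throughout. The parental arm held 3 libraries of untreated parental cells. All arms came from 1 cell line. No label states whether the flasks of a line were derived independently or the parental libraries came from separate cultures, so p-values measure the spread between these libraries, which may be technical.

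Before DNA synthesis starts, the origin recognition complex, CDC6 and CDT1 load the MCM2 to MCM7 ring onto DNA, a step called licensing, and geminin (GMNN) binds CDT1 to prevent loading again in the same cycle. The kinase CDC7 with DBF4, and then MCM10, CDC45 and the GINS complex, convert the loaded ring into a moving helicase. Behind it, RPA coats single strands, DNA polymerase alpha with primase starts each strand, the PCNA clamp and its RFC loader hold polymerases delta and epsilon on DNA, FEN1 and LIG1 join the fragments of the lagging strand, and TIMELESS, TIPIN, CLSPN and WDHD1 steady the fork. Many of these genes are transcribed as cells pass from G1 into S phase, under E2F factors.

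The libraries held 25723575 to 33075041 estimated counts. The 44 members together took 0.547% to 0.572% of the counts in FGF2 early flasks, 0.456% to 0.537% in FL early flasks, 0.118% to 0.125% in acute cultures and 0.575% to 0.590% in parental cells. Ribosomal protein genes took 16.6% to 20.0% of the counts in acute cultures, against 10.9% to 13.2% in the other 11 libraries, and mitochondrial genes 3.52% to 3.91%, against 4.26% to 5.31%. The myeloid marker list (7 genes) summed to 827 to 2123 CPM (counts scaled to a common library depth) in every library, the 3 erythroid markers were at 0 in all 14, and the T cell, B cell, epithelial and fibroblast lists reached at most 1.08, 0.835, 0.820 and 3.24 CPM. FL early flasks 1 and 4 stood apart from flasks 2 and 3 in all tested genes, with first principal component scores of -5.66 and -40.6, against -25.8 and -25.7. Every member call that changes without flasks 1 and 4 is listed where the ligand lines are compared.

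Every one of the 44 members was lower in parental cells after 48 hours of gilteritinib, and the early resistant flasks under the same drug stood near the parental level. In acute against parental cells, 44 of 44 members were lower at an adjusted p under 0.05, where 30.3% of all tested genes were called lower, and 0 members were higher, where 32.3% of all genes were. That 0 was also the count by DESeq2, by limma-voom and at an unadjusted p under 0.05 in edgeR. The median log2 fold change of the members was -2.36, beside 0.07 for all tested genes. Of the members, 43 fell at least 2-fold, 29 at least 4-fold and 14 at least 8-fold. Of all tested genes, 34.45% changed at least 2-fold in either direction, and their shares at 4-fold and 8-fold are not given here. The 5th percentile of the log2 fold change over all tested genes was -1.90 and the 1st was -3.76. No acute library overlapped the parental range for any member, but the share of all tested genes without overlap is not given here. All 44 calls held in each alternative run, including the scaling that left out ribosomal protein and mitochondrial genes. Each library here is a bulk culture, so fewer cells in S phase and less of each transcript per cell cannot be told apart.

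In early against acute cells, 44 of 44 members were higher, where 32.1% of all genes were called higher and 33.9% lower, with a median log2 fold change of 2.14. In early against parental cells, 19 members were lower and 1 higher, where 16.1% of all genes were called lower and 13.7% higher, and the median was -0.21, beside 0.01 for all genes. The member changes in that comparison were small, between -0.67 and 0.81 on the log2 scale. None reached 2-fold, where 10.2% of all genes did in either direction. Of these 20 calls, 11 held in every alternative run, those of CDT1, GMNN, MCM3, MCM6, MCM7, GINS2, GINS3, PCNA, RFC3, POLA2 and FEN1, and without parental library 1 or parental library 2 the count of lower members was 11. The same acute libraries stand in the first 2 comparisons and the same parental libraries in the first and the third, so the comparisons are not independent of each other.

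**Figure D1:**
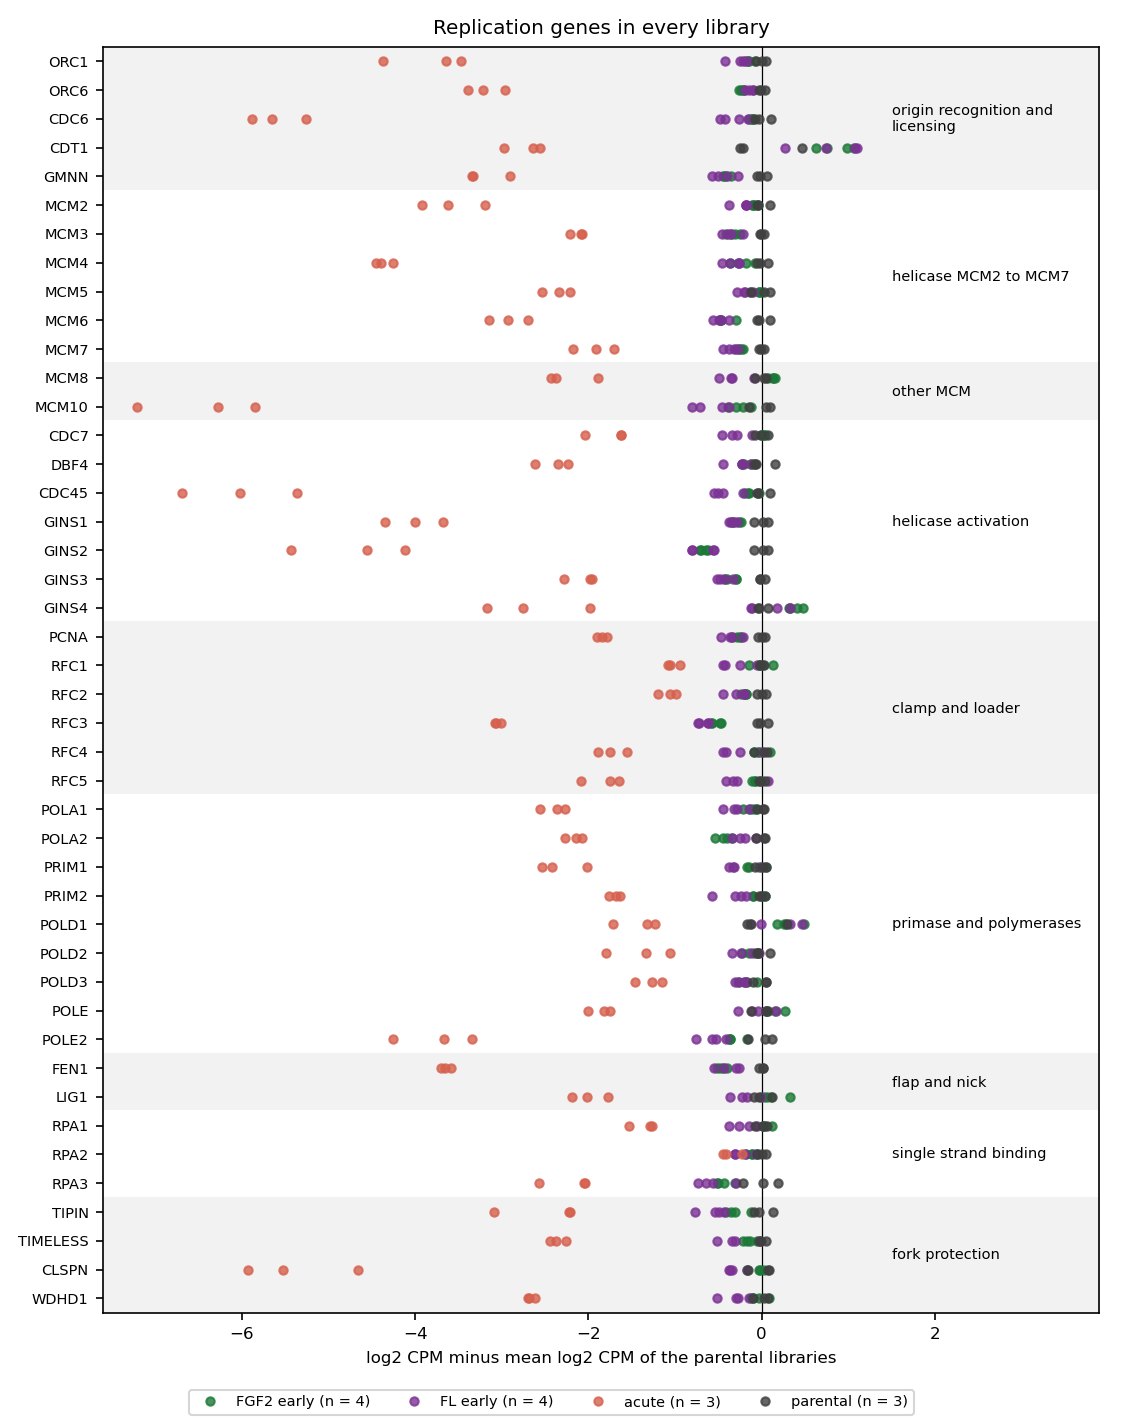
Log2 CPM of each of the 44 members in each of the 14 libraries, as the difference from the mean log2 CPM of the 3 parental libraries, with members grouped by role down the page and points coloured by arm. The acute points lie left of all others for every member except RPA2, where the acute and early points overlap, and CDT1 is the member whose early points lie farthest to the right.

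The fall was uneven. Ranked among the 15756 tested genes by acute against parental log2 fold change, MCM10 stood at place 19 from the most negative, CDC45 at 25, CDC6 at 30, CLSPN at 39, GINS2 at 70 and MCM4 at 81. At the other end stood RPA2, RFC1, RFC2, POLD3, RPA1, POLD2 and POLD1, each with a log2 fold change between -1.43 and -0.35. The plot of changes ordered by size shows both ends beside the smaller differences between early and parental cells. Of the members with the most negative places named above, MCM10, GINS2 and MCM4 were called lower in early cells, while CDC45, CDC6 and CLSPN were not. RPA3 and MCM6 were also called lower. Of 21 alternatives, 8 called CDC6 lower, 5 CDC45 and 1 CLSPN. The MCM10 call was lost in 2, the MCM4 call in 1 and the GINS2 call in 0.

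**Figure D2:**
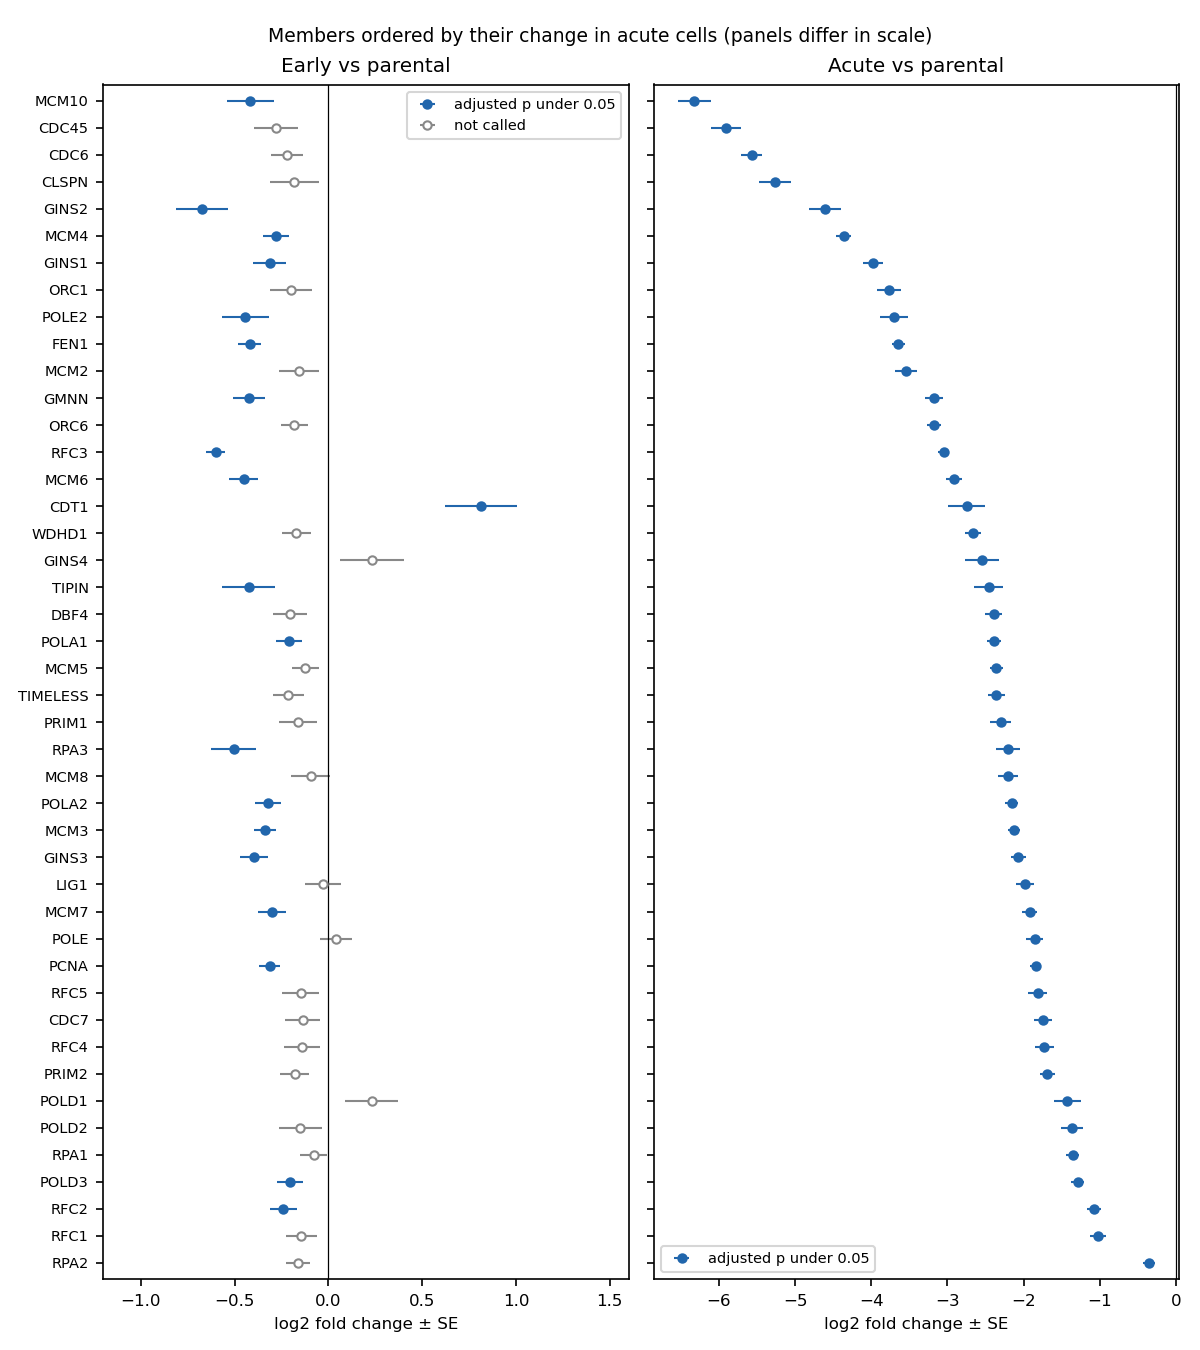
Log2 fold change ± standard error of each member, early against parental cells on the left and acute against parental cells on the right, with members in the order of their acute change and the 2 panels on different scales. Filled points passed an adjusted p under 0.05 and open points did not; acute changes run from -6.32 for MCM10 to -0.35 for RPA2, and early changes from -0.67 for GINS2 to 0.81 for CDT1.

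Promoter sequences are shown here because the members fell together and E2F sites are the element most often named for them. RefSeq windows of 300 bases (GRCh38.p14, 250 bases before and 50 after an annotated start) were at hand for 38 of the 44 members. The E2F letters searched were TTTCCCGC, TTTGGCGC, TTTCGCGC and TTTGCCGC on both strands. At least 1 was found in 21 of the 38 members (55.3%), against 3.99% of all 27305 genes with a window and 6.55% of the tested genes. The CCAAT letters stood in 60.5% of members against 39.7% of all genes, and TTTGAA, letters of the CHR element of genes of late cell cycle stages, in 2.63% of members, which is DBF4 alone, against 18.2% of all genes. Whether the depth of the acute fall goes with the E2F letters was not tested. The median log2 fold change was -2.46 for the 21 members with a match and -2.30 for the 17 without. The ranges were -5.57 to -1.75 and -6.32 to -1.02. MCM10 and CDC45, the 2 members with the largest fall, had no match to these exact letters. A window of each holds tttggcgg, which differs from the searched TTTGGCGC only in its last base. How often these letters stand in the windows of other members and of all genes was not counted. A match is a description of letters in the window, not a bound site. The 4 windows that follow show the range, in the sense of the gene, with E2F letters in capitals: CDC6 (chr17:40287629-40287928, plus strand), where the match begins 8 bases after the start, CLSPN (chr1:35769929-35770228, minus strand), where it begins 5 bases before the start, MCM6 (chr2:135876394-135876693, minus strand), which has 4 matches in 2 overlapping pairs, and MCM10 (chr10:13161308-13161607, plus strand), which has none.
CDC6: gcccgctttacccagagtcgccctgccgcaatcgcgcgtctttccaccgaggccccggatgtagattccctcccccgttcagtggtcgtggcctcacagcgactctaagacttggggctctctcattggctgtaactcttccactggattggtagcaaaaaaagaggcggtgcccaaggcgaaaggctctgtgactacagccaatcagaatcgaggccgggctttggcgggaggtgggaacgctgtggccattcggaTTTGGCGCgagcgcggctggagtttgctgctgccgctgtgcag
CLSPN: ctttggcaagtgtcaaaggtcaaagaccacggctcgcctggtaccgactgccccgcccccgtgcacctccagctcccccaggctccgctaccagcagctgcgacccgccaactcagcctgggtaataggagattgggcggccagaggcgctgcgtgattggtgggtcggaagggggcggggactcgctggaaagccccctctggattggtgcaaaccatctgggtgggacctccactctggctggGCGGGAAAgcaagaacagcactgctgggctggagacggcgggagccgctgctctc
MCM6: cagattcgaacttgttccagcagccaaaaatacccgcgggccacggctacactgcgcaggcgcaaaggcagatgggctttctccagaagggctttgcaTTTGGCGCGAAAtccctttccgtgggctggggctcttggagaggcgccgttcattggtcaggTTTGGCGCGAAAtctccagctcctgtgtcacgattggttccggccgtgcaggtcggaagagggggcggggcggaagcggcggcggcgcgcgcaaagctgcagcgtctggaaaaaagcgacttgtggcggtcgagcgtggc
MCM10: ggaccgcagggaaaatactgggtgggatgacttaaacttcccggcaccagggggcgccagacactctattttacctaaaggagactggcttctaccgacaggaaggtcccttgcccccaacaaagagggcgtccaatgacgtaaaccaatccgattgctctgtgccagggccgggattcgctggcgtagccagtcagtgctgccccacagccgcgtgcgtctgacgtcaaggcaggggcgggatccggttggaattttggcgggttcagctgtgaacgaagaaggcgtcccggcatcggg

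All 5 members for origin recognition and licensing fell in acute cells, with log2 fold changes from -5.57 to -2.75. CDC6 (ENSG00000094804), the ATPase that brings the MCM ring to the origin, was the most affected. CDC6 stood at 78.5, 78.4, 76.2 and 78.2 CPM in FGF2 early flasks, 62.95, 60.4, 70.7 and 75.5 in FL early flasks, 2.20, 1.68 and 1.42 in acute cultures, against 82.6, 90.7 and 80.1 in parental cells. Every acute library held under 3 CPM, and the acute change was -5.57 ± 0.14 (adjusted p = 1.38e-12). In FL early flasks CDC6 was lower than in parental cells, at -0.33 ± 0.10 (adjusted p = 0.029), a call lost in 7 of 17 alternatives. Among them were those without FL early flask 1 or 2, without parental library 1 or 2 and with correction for GC content. The FGF2 early change of -0.12 ± 0.10 was not called, nor was the direct difference between both lines (adjusted p = 0.146). ORC1, the largest subunit of the origin recognition complex, fell by 3.77 ± 0.16 in acute cells, where it ranged over 3.77 to 7.01 CPM, against 74.6 to 80.6 CPM in parental cells. ORC6, its smallest subunit, had 35.5, 35.1, 36.03 and 36.4 CPM in FGF2 early flasks, 39.3, 37.8, 36.8 and 39.3 in FL early flasks, 5.38, 4.50 and 4.0 in acute cultures, against 40.95, 43.1 and 41.8 in parental cells. ORC6 passed the test in FGF2 early flasks, at -0.23 ± 0.08 (adjusted p = 0.0431), and not in FL early flasks, at -0.13 ± 0.08 (adjusted p = 0.272). The difference between both lines was not called (adjusted p = 0.422), and the FGF2 call was lost when any 1 of the 7 libraries compared was left out.

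CDT1 (ENSG00000167513), which hands the MCM ring to the origin, was the only member called higher in early than in parental cells. CDT1 had 139, 132, 103 and 113 CPM in FGF2 early flasks, 142, 80.3, 112 and 143 in FL early flasks, 10.7, 11.4 and 8.50 in acute cultures, against 56.2, 57.3 and 92.3 in parental cells. Parental library 3 was well above the other 2 parental libraries, and FL early flask 2 lay below it. The change was 0.81 ± 0.19 (adjusted p = 0.00667) over both early lines, 0.83 ± 0.21 (adjusted p = 0.00932) in FGF2 early flasks and 0.80 ± 0.21 (adjusted p = 0.0178) in FL early flasks. Over both early lines the call stood just under the threshold without parental library 1 (adjusted p = 0.0494) or parental library 2 (0.0498). The FGF2 early call was lost without parental library 1 (adjusted p = 0.0524) or parental library 2 (0.0521). The FL early call was lost in the same way (0.0913 and 0.0928), and its change was 0.49 (adjusted p = 0.133) without FL early flasks 1 and 4. CDT1 transcripts are 64.9% GC, and only POLD1 among the members was richer, at 65.0%, with 109, 112 and 149.7 CPM in the parental libraries. Correcting each library for GC content gave CDT1 a log2 fold change of 0.44 in early cells (adjusted p = 0.0189), 0.50 in FGF2 early (0.0150) and 0.38 in FL early flasks (0.0780).

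GMNN (ENSG00000112312), the inhibitor of CDT1, moved the other way in early cells. GMNN had 54.9, 57.4, 53.5 and 54.3 CPM in FGF2 early flasks, 49.1, 51.6, 55.3 and 60.6 in FL early flasks, 7.18, 9.72 and 7.27 in acute cultures, against 72.3, 76.5 and 70.4 in parental cells. All 8 early flasks lay below the lowest parental library, with a change of -0.42 ± 0.08 (adjusted p = 0.00252), and the acute change was -3.18 ± 0.12 (adjusted p = 3.26e-11). The CPM ratio of CDT1 over GMNN was 1.93 to 2.54 in FGF2 early flasks, 1.56 to 2.88 in FL early flasks, 1.17 to 1.49 in acute cultures and 0.750 to 1.31 in parental cells. Every early flask thus exceeded the highest parental ratio, while the acute and parental ranges overlapped. Such ratios are read here only between arms, since the genes differ in length and GC content, and they were not tested. A GC bias that differs between libraries would still move them. CDT1 transcripts are 64.9% GC and those of GMNN 43.6%, and the ratios were not corrected for GC content.

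**Figure D3:**
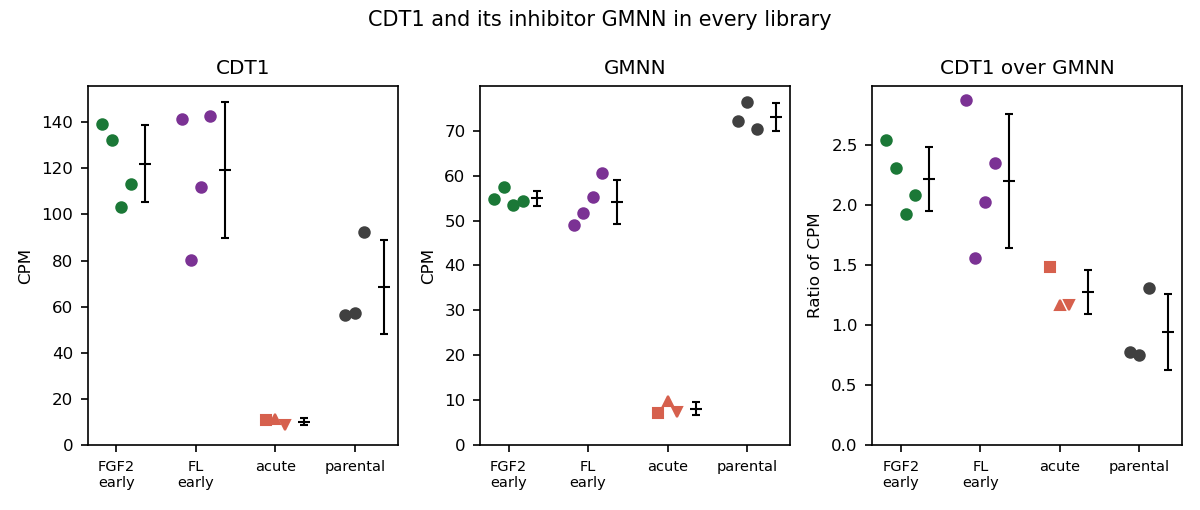
CPM of CDT1 and of GMNN and their ratio in every library, with FGF2 early, FL early, acute and parental arms from left to right, acute points as a square (drug alone), an upward triangle (with FGF2) and a downward triangle (with FL), and mean ± SD beside each arm. CDT1 ranges over 80.3 to 142.7 CPM in early flasks and 56.2 to 92.3 CPM in parental cells, and GMNN over 49.1 to 60.6 CPM in early flasks and 70.4 to 76.5 CPM in parental cells.

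The 6 subunits of the MCM2 to MCM7 helicase are used in equal numbers in the ring, but their transcripts did not fall alike. MCM4 had 589.9, 629, 668 and 718 CPM in FGF2 early flasks, 552, 588, 634 and 636 in FL early flasks, 34.8, 39.7 and 36.2 in acute cultures, against 800.2, 748 and 731 in parental cells. MCM7 had 429, 448, 439 and 455 CPM in FGF2 early flasks, 406, 388, 425 and 438 in FL early flasks, 117, 162 and 140.2 in acute cultures, against 526, 518 and 539 in parental cells. The log2 fold change in acute cells was -4.36 ± 0.10 for MCM4 and -1.92 ± 0.10 for MCM7, so the largest and the smallest subunit changes lay more than 2 log2 units apart. Of the others, MCM2 changed by -3.55 ± 0.14, MCM6 by -2.91 ± 0.11, MCM5 by -2.36 ± 0.09 and MCM3 by -2.12 ± 0.08, and all 6 passed the test. Per kilobase of the longest transcript, the 6 subunits summed to 612 to 677 CPM in FGF2 early flasks, 564 to 621 in FL early flasks, 110.4 to 137 in acute cultures and 730.3 to 765 in parental cells. MCM4 made up 23.0% to 25.4% of that sum in FGF2 early flasks, 21.8% to 24.95% in FL early flasks, 6.94% to 7.54% in acute cultures and 23.1% to 25% in parental cells. MCM7 made up 34.3% to 38.3% in acute cultures, against 22.3% to 23.1% in parental cells, and MCM3 26.0% to 29.4%, against 19.5% to 20.3%. MCM2 took 5.47% to 7.36% in acute cultures, against 11.6% to 13.0% in parental cells.

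**Figure D4:**
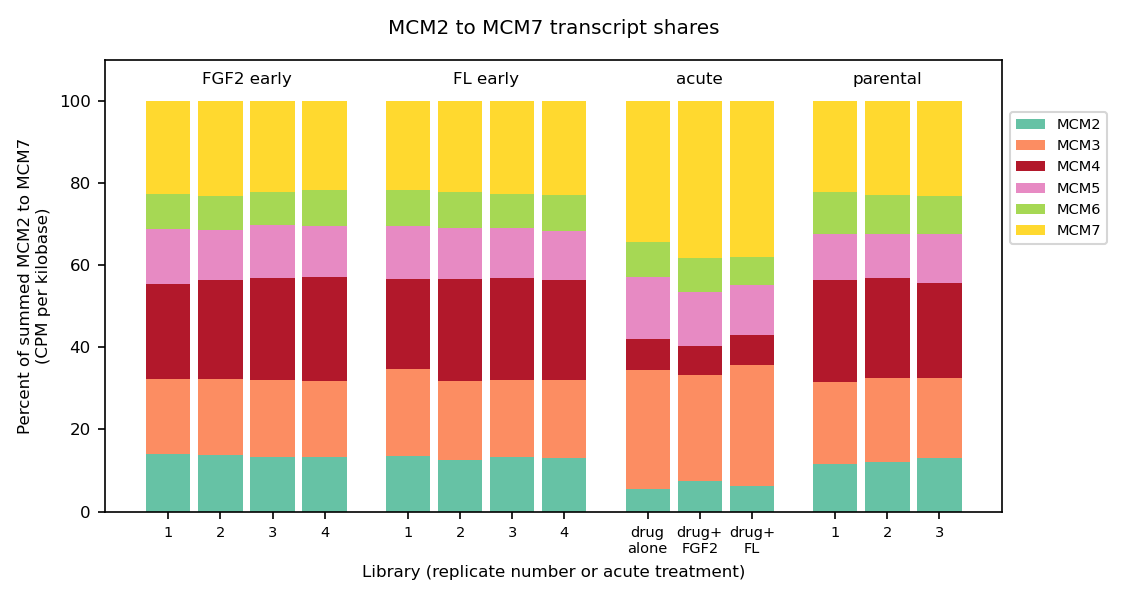
Share of each subunit in the summed CPM per kilobase of MCM2 to MCM7, 1 bar per library, with FGF2 early, FL early, acute and parental arms from left to right. MCM4, in red, takes 6.94% to 7.54% in the 3 acute cultures and 21.8% to 25.4% in the other libraries, and MCM7 and MCM3 take more in the acute cultures than in any other library.

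In early flasks 4 of the 6 helicase subunits were called below the parental level, by small amounts, and the subunits that fell least in acute cells were not the closest to it. MCM6 had 194, 194, 195 and 220 CPM in FGF2 early flasks, 196, 183, 193 and 208 in FL early flasks, 35.6, 41.7 and 30.4 in acute cultures, against 288, 259.8 and 264 in parental cells. MCM3 had 361, 375, 387 and 404 CPM in FGF2 early flasks, 413, 348, 365 and 376 in FL early flasks, 103, 114 and 113 in acute cultures, against 487, 476 and 473 in parental cells. All 8 early flasks lay below all parental libraries for both, with changes of -0.45 ± 0.08 (adjusted p = 0.000974) and -0.34 ± 0.06 (adjusted p = 0.000974). MCM7, at -0.30 ± 0.08 (adjusted p = 0.00911), and MCM4, at -0.28 ± 0.07 (adjusted p = 0.00878), were also lower. MCM5 had 289, 271, 290.4 and 296 CPM in FGF2 early flasks, 278, 244, 260 and 257 in FL early flasks, 58.6, 63.96 and 51.3 in acute cultures, against 301, 272 and 318 in parental cells. Its early flasks overlapped the parental libraries and its change of -0.12 ± 0.07 (adjusted p = 0.201) was not called, nor was that of MCM2, at -0.16 ± 0.11 (adjusted p = 0.285). Of these subunits, MCM3 and MCM6 were called lower in each line and in every alternative run, and the MCM4 call over both lines was lost without parental library 1 (adjusted p = 0.0648).

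MCM10 (ENSG00000065328), which helps to open the loaded ring, had the largest fall of all 44 members. MCM10 had 83.9, 74.6, 70.1 and 79.01 CPM in FGF2 early flasks, 52.2, 55.99, 66.6 and 70.3 in FL early flasks, 1.18, 1.58 and 0.616 in acute cultures, against 94.8, 97.5 and 82.3 in parental cells. The acute libraries held 16 to 46 counts of it, and the change was -6.32 ± 0.22 (adjusted p = 1.82e-11), so that acute cultures held 0.0125 times the parental level. MCM10 was lower in FL early flasks than in parental cells, at -0.58 ± 0.14 (adjusted p = 0.0125), and not called in FGF2 early flasks, at -0.25 ± 0.14 (adjusted p = 0.201), without a called difference between the lines (adjusted p = 0.123). The FL early call was lost without parental library 1 (0.0565) or 2 (0.0653). MCM8 (ENSG00000125885), a helicase used in break repair rather than in the replicative ring, fell by 2.21 ± 0.13 in acute cells and had 70.7, 73.96, 73.95 and 74.97 CPM in FGF2 early flasks, 47.8, 53.1, 52.8 and 63.5 in FL early flasks, 18.1, 12.98 and 12.5 in acute cultures, against 68.6, 69.6 and 64.1 in parental cells. All 4 FGF2 early flasks lay above all 4 FL early flasks, and that difference is taken up with the ligand lines.

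All 7 genes of helicase activation fell in acute cells, with a median log2 fold change of -2.54. CDC45 (ENSG00000093009), a core part of the moving helicase, had 75.3, 74.6, 72.8 and 81.6 CPM in FGF2 early flasks, 56.9, 58.5, 61.03 and 71.6 in FL early flasks, 1.28, 2.03 and 0.808 in acute cultures, against 81.2, 88.7 and 80.1 in parental cells. Its acute change was -5.91 ± 0.20 (adjusted p = 1.67e-11). GINS2 had 32.9, 34.4, 32.6 and 34.9 CPM in FGF2 early flasks, 36.4, 30.7, 30.6 and 36.7 in FL early flasks, 1.25, 3.09 and 2.27 in acute cultures, against 53.97, 56.4 and 50.5 in parental cells. The 4 GINS subunits form 1 complex, yet the acute change was -4.61 ± 0.21 for GINS2 and -3.98 ± 0.13 for GINS1, but -2.54 ± 0.22 for GINS4 and -2.07 ± 0.10 for GINS3. The CPM ratio of GINS2 over GINS3 was 0.171 to 0.346 in acute cultures, against 1.45 to 1.55 in parental cells. GINS4 had 77.4, 73.99, 69.8 and 69.5 CPM in FGF2 early flasks, 62.9, 51.3, 50.9 and 69.7 in FL early flasks, 14.1, 6.18 and 8.23 in acute cultures, against 54.5, 54.01 and 58.3 in parental cells. The highest of its 3 acute values was more than 2-fold the lowest. All 4 FGF2 early flasks lay above the 3 parental libraries and the FL early flasks overlapped them. GINS4 was not called in FGF2 early flasks, at 0.39 ± 0.19 (adjusted p = 0.142), although 2 of 16 alternatives called it higher, those with only the arms compared (0.000556) and with the replicate block (0.0371). The kinase CDC7 had 31.2, 32.0, 32.2 and 31.7 CPM in FGF2 early flasks, 25.7, 24.8, 22.8 and 29.1 in FL early flasks, 10.2, 10.2 and 7.62 in acute cultures, against 31.3, 33.0 and 29.8 in parental cells. CDC7 fell least in this group, at -1.75 ± 0.12, and its activating subunit DBF4 changed by -2.40 ± 0.12.

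Of these 7 genes, 3 were lower in early than in parental cells. GINS2 changed by -0.67 ± 0.14 (adjusted p = 0.00286), the largest early decrease of any member, GINS3 by -0.39 ± 0.08 (adjusted p = 0.00174) and GINS1 by -0.31 ± 0.09 (adjusted p = 0.0157). GINS3, a subunit whose range was 24.8 to 28.9 CPM in early flasks and 34.8 to 36.4 CPM in parental cells, was called in each line and in every alternative run. CDC45 was called in FL early flasks, at -0.43 ± 0.14 (adjusted p = 0.0393), and not in FGF2 early flasks, at -0.13 ± 0.14 (adjusted p = 0.492). The FL early call was lost without any 1 of FL early flasks 1 to 3 or of the parental libraries (adjusted p from 0.0688 to 0.153). The difference between both lines for CDC45 was not called (adjusted p = 0.142), but 4 of 18 alternatives called it, namely DESeq2 (0.0264), limma-voom (0.0377), only the arms compared (0.0476) and the replicate block (0.0160).

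All 9 genes of primase and the polymerases fell in acute cells, with a median log2 fold change of -1.86. POLE2, the second subunit of the leading strand polymerase epsilon, had 17.1, 19.6, 17.1 and 16.96 CPM in FGF2 early flasks, 15.2, 14.8, 13.03 and 16.6 in FL early flasks, 1.74, 2.16 and 1.15 in acute cultures, against 22.6, 23.9 and 19.8 in parental cells. Its catalytic partner POLE had 286, 246, 249 and 264 CPM in FGF2 early flasks, 229.5, 196, 219.6 and 265 in FL early flasks, 66.96, 70.1 and 59.2 in acute cultures, against 246, 218 and 247 in parental cells. The acute change was -3.70 ± 0.18 for POLE2 and -1.86 ± 0.11 for POLE, a further pair of partners with unequal change. POLD3, an accessory subunit of the lagging strand polymerase delta, had 70.02, 66.7, 77.6 and 71.5 CPM in FGF2 early flasks, 70.8, 71.3, 67.2 and 64.9 in FL early flasks, 36.2, 33.5 and 29.3 in acute cultures, against 83.3, 83.4 and 75.3 in parental cells. It fell least in this group, at -1.29 ± 0.09, close to POLD2 (-1.37) and the catalytic POLD1 (-1.43). POLD2 had 119, 122, 108 and 114 CPM in FGF2 early flasks, 122, 99.4, 116 and 106 in FL early flasks, 36.2, 60.2 and 49.9 in acute cultures, against 121, 122 and 134 in parental cells. POLA1, the catalytic subunit of polymerase alpha, changed by -2.39 ± 0.09, its partner POLA2 by -2.16 ± 0.09, the primase subunit PRIM1 by -2.30 ± 0.13 and its partner PRIM2 by -1.69 ± 0.10.

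In early flasks, 4 of these 9 genes were lower than in parental cells, and the calls differed between the lines. POLA2 had 43.2, 46.01, 49.4 and 47.7 CPM in FGF2 early flasks, 52.95, 54.99, 59.9 and 49.6 in FL early flasks, 13.1, 14.98 and 14.2 in acute cultures, against 64.3, 60.1 and 64.2 in parental cells. POLA2 was called in FGF2 early flasks, at -0.43 ± 0.08 (adjusted p = 0.00111), and not in FL early flasks, at -0.21 ± 0.08 (adjusted p = 0.0714), and the difference between both lines missed the threshold (adjusted p = 0.0565). That difference was called by DESeq2 (0.0242), without FL early flask 4 (0.0215) and without FL early flasks 1 and 4, at -0.30 (adjusted p = 0.0178). POLA1 had 65.8, 69.3, 70.9 and 72.9 CPM in FGF2 early flasks, 56.1, 62.5, 61.1 and 68.7 in FL early flasks, 12.98, 15.8 and 14.8 in acute cultures, against 77.9, 77.2 and 73.4 in parental cells. POLA1 was called in FL early flasks, at -0.29 ± 0.08 (adjusted p = 0.0189), and not in FGF2 early flasks, at -0.13 ± 0.08 (adjusted p = 0.246). POLE2 was also called in FL early flasks (-0.57 ± 0.15) and not in FGF2 early flasks (-0.32 ± 0.15), where 4 of 16 alternatives called it. The direct difference between both lines was not called for POLA1 (adjusted p = 0.155) or POLE2 (0.259). PRIM2 had 44.3, 44.5, 48.8 and 47.6 CPM in FGF2 early flasks, 40.2, 38.5, 31.9 and 41.8 in FL early flasks, 15.3, 14.01 and 14.8 in acute cultures, against 47.2, 48.7 and 46.7 in parental cells. PRIM2 was called lower in FL early flasks, at -0.32 ± 0.09 (adjusted p = 0.0194), with -0.04 ± 0.09 in FGF2 early flasks. The FL early calls of POLA1, POLE2 and PRIM2 were each lost without parental library 1 or 2. Copies nearly identical to part of PRIM2 exist in the genome, so its level is uncertain. Over both lines, POLE2 changed by -0.44 ± 0.13, POLA2 by -0.32 ± 0.07, POLA1 by -0.21 ± 0.07 and POLD3 by -0.21 ± 0.07, and all but POLA2 lost the call when a parental library was left out.

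The clamp and its loader fell in all 6 genes in acute cells, with a median log2 fold change of -1.77. PCNA, the sliding clamp and the member with the highest level per kilobase in acute cultures and in parental cells, had 198, 212, 206 and 212 CPM in FGF2 early flasks, 195, 181, 198 and 216 in FL early flasks, 70.2, 73.1 and 67.2 in acute cultures, against 243, 259 and 252 in parental cells. It fell by 1.84 ± 0.07 in acute cells and was lower in early cells, at -0.31 ± 0.06 (adjusted p = 0.00118), with no overlap. RFC3, one of the small loader subunits, had 66.1, 66.7, 70.99 and 71.4 CPM in FGF2 early flasks, 59.6, 59.9, 64.4 and 64.5 in FL early flasks, 12.4, 11.8 and 11.8 in acute cultures, against 97.8, 104 and 95.6 in parental cells. RFC1, the large subunit, had 83.2, 90.02, 101 and 93.3 CPM in FGF2 early flasks, 68.5, 67.7, 77.7 and 89.1 in FL early flasks, 44.4, 48.02 and 43.7 in acute cultures, against 91.3, 90.99 and 94.2 in parental cells. The acute change was -3.05 ± 0.07 for RFC3 and -1.02 ± 0.10 for RFC1, and the CPM ratio of RFC3 over RFC1 was 0.245 to 0.278 in acute cultures, against 1.01 to 1.15 in parental cells. RFC3 was also among the members farthest below the parental level in early flasks, at -0.60 ± 0.05 (adjusted p = 5.2e-06), with every early flask under every parental library.

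The other small loader subunits fell less than RFC3 in acute cells. RFC2 had 23.7, 23.5, 22.9 and 23.8 CPM in FGF2 early flasks, 23.5, 19.9, 21.9 and 23.4 in FL early flasks, 11.8, 12.9 and 13.6 in acute cultures, against 27.8, 26.02 and 26.98 in parental cells. Its acute change was -1.07 ± 0.09, and its change over both early lines was -0.24 ± 0.07 (adjusted p = 0.0225). RFC2 was called in FL early flasks (-0.28 ± 0.08) and not in FGF2 early flasks (-0.20 ± 0.08). The FL early call was lost in 7 of 17 alternatives, and the direct difference between both lines was not called (adjusted p = 0.528). RFC4 had 52.1, 53.8, 54.6 and 59.3 CPM in FGF2 early flasks, 46.6, 40.9, 41.6 and 55.8 in FL early flasks, 18.9, 16.5 and 14.9 in acute cultures, against 56.6, 57.8 and 52.2 in parental cells. RFC5 had 76.3, 74.5, 76.4 and 80.6 CPM in FGF2 early flasks, 64.4, 60.8, 66.2 and 84.8 in FL early flasks, 25.7, 24.1 and 19.1 in acute cultures, against 83.2, 79.9 and 78.99 in parental cells. Both fell in acute cells, at -1.73 ± 0.12 for RFC4 and -1.81 ± 0.12 for RFC5, and both overlapped the parental libraries in early flasks, with no call. In FL early against parental cells both were called in 3 of 17 alternatives, and without FL early flasks 1 and 4 the change was -0.42 (adjusted p = 0.0112) for RFC4 and -0.34 (adjusted p = 0.0395) for RFC5. RFC1 was called lower in FL early flasks, at -0.28 ± 0.09 (adjusted p = 0.0451), a call lost in 10 of 17 alternatives, among them leaving out any 1 parental library (0.110 to 0.113), and stood at -0.01 ± 0.09 in FGF2 early flasks.

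FEN1, the nuclease that trims the flaps of lagging strand fragments, fell more than LIG1, the ligase that seals them. FEN1 had 121, 128, 119 and 124 CPM in FGF2 early flasks, 116, 125, 141 and 138 in FL early flasks, 14.1, 13.4 and 13.04 in acute cultures, against 166, 170.5 and 172 in parental cells. LIG1 had 138, 134, 142 and 165 CPM in FGF2 early flasks, 117, 102, 113 and 131 in FL early flasks, 28.9, 38.6 and 32.6 in acute cultures, against 143, 124 and 129 in parental cells. The acute changes were -3.65 ± 0.08 (adjusted p = 9.48e-13) and -1.98 ± 0.12 (adjusted p = 5.41e-09). FEN1 was also lower in early cells, at -0.42 ± 0.06 (adjusted p = 0.000267), and LIG1 was not called, at -0.03 ± 0.09 (adjusted p = 0.853). FEN1 shares exon positions with FADS2 on the same strand, so some of its counts may belong to either gene.

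Among the 3 subunits of RPA, the trimer that coats single strands, RPA2 (ENSG00000117748) was the member least changed by the drug. RPA2 had 88.4, 93.03, 92.5 and 97.7 CPM in FGF2 early flasks, 87.96, 80.98, 80.8 and 96.1 in FL early flasks, 73.9, 85.8 and 75.6 in acute cultures, against 101, 104 and 96.5 in parental cells. RPA3 had 26.6, 26.9, 30.8 and 28.2 CPM in FGF2 early flasks, 22.9, 24.4, 25.9 and 31.01 in FL early flasks, 6.42, 9.27 and 9.20 in acute cultures, against 38.6, 43.6 and 32.99 in parental cells. RPA1, the large subunit, had 214, 214, 218 and 229 CPM in FGF2 early flasks, 176, 163, 190.5 and 203 in FL early flasks, 73.2, 87.6 and 86.5 in acute cultures, against 201, 213 and 220.1 in parental cells. The acute changes were -0.35 ± 0.08 (adjusted p = 0.00156) for RPA2, -1.36 ± 0.09 (adjusted p = 1.27e-08) for RPA1 and -2.21 ± 0.16 (adjusted p = 2.79e-08) for RPA3. The CPM ratio of RPA3 over RPA2 was 0.0870 to 0.122 in acute cultures, against 0.342 to 0.421 in parental cells. In early against acute cells RPA2 was the single member whose libraries overlapped, and its change of 0.19 ± 0.07 (adjusted p = 0.022) was lost without the drug-alone library (adjusted p = 0.0983), without the library with FL (0.0882) and after correction for GC content (0.197). In early against parental cells RPA3 was lower, at -0.50 ± 0.12 (adjusted p = 0.00662), a call lost without parental library 2 (0.0627).

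The 4 fork protection genes fell in acute cells, CLSPN far more than the rest. CLSPN (ENSG00000092853), the adaptor that passes the checkpoint signal to CHEK1, had 65.7, 68.6, 59.9 and 66.4 CPM in FGF2 early flasks, 51.9, 52.05, 52.8 and 59.9 in FL early flasks, 2.65, 1.10 and 1.46 in acute cultures, against 71.1, 70.5 and 60.4 in parental cells. Its acute change was -5.26 ± 0.21 (adjusted p = 6.78e-11). WDHD1, which links the helicase to polymerase alpha, had 49.9, 57.01, 49.3 and 52.7 CPM in FGF2 early flasks, 37.5, 44.6, 43.8 and 48.7 in FL early flasks, 8.26, 8.76 and 8.35 in acute cultures, against 56.3, 54.6 and 50.2 in parental cells. TIMELESS and TIPIN form 1 complex. TIMELESS had 219.5, 233, 226 and 246 CPM in FGF2 early flasks, 206, 179, 202 and 253 in FL early flasks, 53.4, 49.3 and 46.9 in acute cultures, against 264, 249 and 254 in parental cells. TIPIN had 19.9, 22.6, 18.5 and 19.1 CPM in FGF2 early flasks, 14.4, 16.9, 18.2 and 17.5 in FL early flasks, 2.88, 5.29 and 5.27 in acute cultures, against 23.9, 26.8 and 23.02 in parental cells. The acute changes were -2.67 ± 0.10 for WDHD1, -2.46 ± 0.19 for TIPIN and -2.36 ± 0.11 for TIMELESS, the last of these with all acute libraries within 46.9 to 53.4 CPM. In FL early flasks, TIPIN (-0.55 ± 0.16), WDHD1 (-0.30 ± 0.09) and TIMELESS (-0.28 ± 0.09) were called lower than in parental cells. Of 17 alternatives, 5 lost the TIPIN call, 5 the WDHD1 call and 10 the TIMELESS call, and each was lost without FL early flask 1, without parental library 1 or 2 and with correction for GC content. Without FL early flasks 1 and 4, TIPIN stood at -0.48 (adjusted p = 0.106). In FGF2 early flasks the changes of -0.30 ± 0.16 for TIPIN, -0.04 ± 0.09 for WDHD1 and -0.14 ± 0.09 for TIMELESS were not called. The direct difference between both lines was called for WDHD1 (adjusted p = 0.049) and not for TIPIN (0.3) or TIMELESS (0.329).

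The levels of the members spanned a wide range. On the scale of CPM per kilobase of the longest annotated coding transcript, parental cells had most of PCNA (185 ± 5.75), MCM4 (182 ± 8.66), MCM7 (171 ± 3.30) and MCM3 (149 ± 2.29), and least of WDHD1 (8.96 ± 0.522) and MCM8 (9.01 ± 0.387), as mean ± SD over 3 libraries. The order of PCNA and MCM4 was within their spread, as was that of WDHD1 and MCM8. MCM4 stood at place 15 of the 44 in acute cultures and at place 2 in parental cells. CDC45 stood at place 41 in acute cultures and 16 in parental cells, and RPA2 at place 3 in acute cultures and 11 in parental cells.

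Fewer members were called below the parental level in the FGF2 early line than in the FL early line. In FGF2 early against parental cells, 14 members were lower, where 17.1% of all genes were, and 1 was higher, where 13.3% were. In FL early against parental cells, 23 members were lower, where 9.76% of all genes were, and 1 was higher, where 10.9% were. Both comparisons use the same 3 parental libraries. The median log2 difference of the 44 members from the parental mean was -0.18, -0.13, -0.17 and -0.08 in FGF2 early flasks 1 to 4 and -0.37, -0.37, -0.31 and -0.18 in FL early flasks 1 to 4. FL early flask 4 held the highest of the 4 FL early values for 35 of the 44 members. The FGF2 count was 9 without FGF2 early flask 1, FGF2 early flask 2, parental library 1 or parental library 2. The FL count moved with single libraries: 10 members were lower without parental library 1, 9 without parental library 2, 15 without FL early flask 1 and 30 without FL early flask 4. Only 8 of the 23 were lower in every alternative run, MCM3, MCM6, MCM7, GMNN, GINS3, PCNA, RFC3 and FEN1. Without FL early flasks 1 and 4, the calls of CDT1, GINS1 and TIPIN in FL early against parental cells were lost and those of CDC7, RFC4, RFC5 and RPA2 gained as lower. Over both lines against parental cells the same omission lost POLD3 and TIPIN and gained CDC6, PRIM2, RPA2 and TIMELESS as lower.

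Compared directly, FGF2 early flasks had 7 members higher than FL early flasks, where 4.0% of all genes were higher, and 0 lower, where 9.56% were. For the lower direction, DESeq2 called 1 member, limma-voom 0, and 1 had an unadjusted p under 0.05 in edgeR. The fitted difference was above 0 for 41 of the 44 members, with a median of 0.14, beside no shift for all genes. MCM8 differed most, at 0.43 ± 0.11 (adjusted p = 0.0162). The 4 FGF2 early flasks held 70.6 to 75.0 CPM of MCM8 and the 4 FL early flasks 47.8 to 63.5 CPM. LIG1 followed at 0.32 ± 0.10 (adjusted p = 0.0451) and CDC7 at 0.31 ± 0.10 (adjusted p = 0.049). The other 4 were PRIM2 at 0.28 ± 0.08 (adjusted p = 0.0342), RFC1 at 0.28 ± 0.09 (adjusted p = 0.0482), WDHD1 at 0.26 ± 0.08 (adjusted p = 0.049) and RPA1 at 0.26 ± 0.08 (adjusted p = 0.0386). The flasks of both lines did not overlap for 6 of the 7, RFC1 being the exception. MCM8 alone held in every alternative run, and the count was 11 without FL early flask 4 but 1 or 2 without any other early flask, and 1 without the filter on low counts. Without FL early flasks 1 and 4, 10 members were higher, with POLE, RFC4 and TIMELESS added, and POLA2 was lower.

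**Figure D5:**
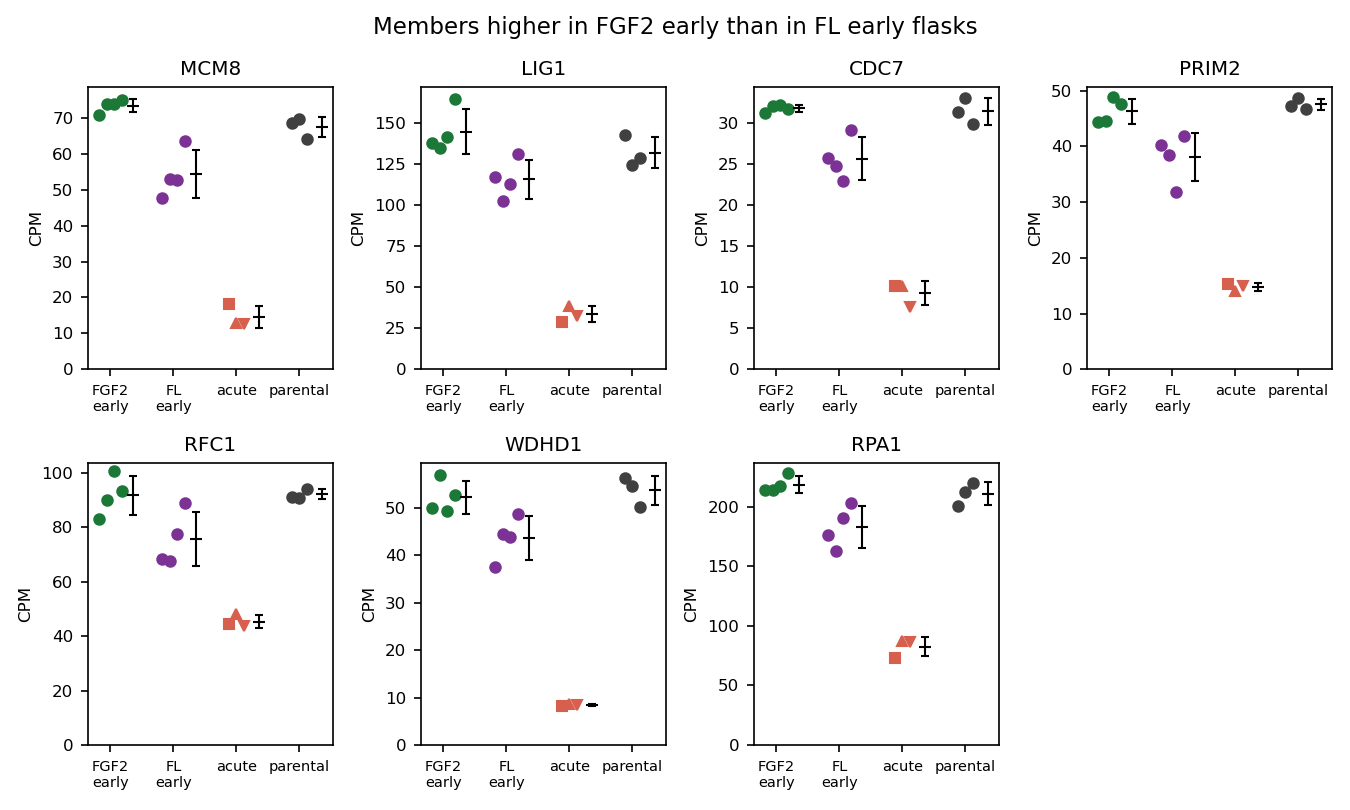
CPM in every library of the 7 members called higher in FGF2 early than in FL early flasks, with FGF2 early, FL early, acute and parental arms from left to right, acute points as a square (drug alone), an upward triangle (with FGF2) and a downward triangle (with FL), and mean ± SD beside each arm. MCM8 shows the widest gap, with 70.6 to 75.0 CPM in FGF2 early flasks and 47.8 to 63.5 CPM in FL early flasks.

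Adding a ligand during the 48-hour exposure left the members low. With 1 library per ligand state no test between these states was made, and a member was counted as different at 1.5-fold or more in CPM. With FGF2, 5 members were higher than with drug alone, where 9.71% of all genes with at least 20 counts over the pair were, and 2 were lower, where 9.58% were. With FL, 2 were higher and 8 lower, where 9.03% of all genes were in each direction. With FGF2 the 5 of 44 members, a count near the share of all genes, were GINS2, TIPIN, MCM2, POLD2 and CDC45. CDC45 had 59 counts with FGF2 and 39 with drug alone, a ratio of 1.585 (95% interval 1.04 to 2.44). GINS2 had 90 counts (3.09 CPM) with FGF2 and 38 counts (1.25 CPM) with drug alone, a ratio of 2.48 (95% interval 1.68 to 3.73). TIPIN had 154 counts with FGF2 and 88 with drug alone, a ratio of 1.83 (1.40 to 2.41). GINS4 and CLSPN were lower with FGF2, at ratios of 0.438 (0.366 to 0.522) and 0.414 (0.266 to 0.631). With FL, GINS2 and TIPIN were higher than with drug alone, at 1.82 (1.19 to 2.82) and 1.83 (1.39 to 2.42). The FGF2 and FL ratios divide by the same drug-alone library, so they are not independent. The lowest ratios with FL were those of MCM10 at 0.522 (0.270 to 0.965), with 16 counts against 36, ORC1 at 0.538 (0.419 to 0.686) and CLSPN at 0.551 (0.364 to 0.819). Intervals are exact binomial and cover counting error only. With FGF2 the count of higher members depended on the scaling, being 2 when libraries were scaled to total counts.

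Of 46 other replication genes, 36 were lower and 1 higher in acute than in parental cells, where 30.3% of all tested genes were lower and 32.3% higher, with a median log2 fold change of -1.18. All 5 of origin firing were lower, led by TICRR (-3.85) and RECQL4 (-2.54), as were all 7 of chromatin assembly at forks, led by ASF1B (-3.96) and CHAF1B (-3.91). Among polymerase and fork genes, 10 of 13 were lower, led by DSCC1 (-5.28), a subunit of an alternative clamp loader, and TOP2A (-3.41), and POLD4, a small subunit of polymerase delta, was higher at 1.42 ± 0.13 (adjusted p = 4.16e-07). POLD4 stood at 97.1 ± 6.97 CPM in acute cultures and 36.2 ± 2.83 CPM in parental cells (SD, n = 3 each), the opposite direction to POLD1, POLD2 and POLD3. In licence turnover 5 of 6 were lower, led by DTL (-4.31), which directs CDT1 to degradation, and FBXO5 (-2.57), and in the checkpoint list 4 of 8, led by CHEK1 (-3.70) and RAD1 (-1.58). Of the other origin and licensing genes 5 of 7 were lower, led by ORC5 (-1.53) and ORC3 (-1.40), while MCM9 and MCMBP were not called. In early against parental cells 18 of the 46 were lower, where 16.1% of all genes were, and 1 was higher, where 13.7% were, CHTF18 at 0.74 ± 0.18 (adjusted p = 0.00665).

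Some member values carry uncertainty from the annotation. Besides FEN1, the members POLA2, PRIM1 and POLD1 share exon positions with an unnamed or lesser known gene on the same strand. On the opposite strand, MCM7 overlaps AP4M1, RFC4 EIF4A2, GINS2 GSE1, RPA3 UMAD1, FEN1 TMEM258, MCM2 TPRA1, DBF4 SLC25A40 and PRIM1 HSD17B6. GINS3, GINS4, RFC5, LIG1 and CLSPN overlap unnamed genes there. The library kit keeps strand, but whether the counting used it is not given in the sources used here.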

How the data were processed

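Poly(A) RNA-seq libraries were made with a stranded TruSeq kit and run on a NovaSeq instrument, per the labels' protocols. The submitters' processing notes name kallisto, without a version, and the build GRCh37. The authors deposited 1 table of estimated counts per Ensembl gene for 14 libraries, not normalized for depth, and within 1e-06 only 0.0540% of the nonzero entries are whole. How transcripts were summed to genes is not given in the sources used here.

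Symbols came from GENCODE 29 and the gene name tables, which named 33353 of the 39293 identifiers (84.9%). Estimated counts were rounded, and filterByExpr (at least 10 counts, 15 in total) left 15756 genes. The test was the robust quasi-likelihood test of edgeR 4.0.16 (R 4.3.3) after TMM scaling, with p-values adjusted over all tested genes by Benjamini and Hochberg at a threshold of 0.05. The 14 libraries were fitted together in 4 arms, and an early comparison weighs both ligand lines equally. The acute arm pools 3 ligand states, so its spread includes their differences. CPM uses TMM library sizes, and CPM per kilobase divides by the longest coding transcript in GENCODE 29. Standard errors are the log2 fold change over the root of the F statistic.

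The members, their roles and the 46 other replication genes were chosen with earlier results of these data known. Values in every library are printed for the members with the largest and the smallest change in each role and comparison and for members whose call differs between the lines. The other replication genes are named by the 2 largest acute changes per list and any that moved against it; CHTF18, MCM9 and MCMBP were named after their values were seen.

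On simulated counts for acute against parental cells (15438 genes), 65.7%, 95.5% and 100% of genes changed 1.5-fold, 2-fold and 4-fold were recovered, and 6.95% of calls were false. For FGF2 early against parental cells (15429 genes) the shares were 64.2%, 94.0% and 100%, and 4.97% of calls were false. Each simulation changed 67, 67 and 66 genes by these folds, in random direction and only among genes above a CPM limit. In the data, 32.3% of genes were called higher and 30.3% lower in acute against parental cells. Recovery and false calls with so many genes changed were not tested. No pair of replicates agreed within counting noise, with a chi-square per degree of freedom of at least 5.40. Alternatives used DESeq2 1.42.0, limma-voom 3.58.1, other scalings, no filter, the arms compared alone, an acute arm of drug alone, the replicate number as a block and leaving out each library. Added after seeing the data were a scaling without ribosomal protein and mitochondrial genes, a correction for GC content, and a fit without both FL early flasks that stood apart. Protein sequences were not used here. Python 3.11.15 and matplotlib 3.10.9 drew the figures.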

Additional observations from a re-analysis of the deposited data

Results flagged for a closer look

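In 88 tests of 4 flasks each, 6 members had 1 flask far from the other 3 by Dixon's test, where chance gives about 1 in 20. CDC6 had 76.2 CPM in FGF2 early flask 3, below 78.2 to 78.5 CPM in the others, a gap that is small in size. MCM6 had 220 CPM in FGF2 early flask 4, above 194 to 195 CPM. POLE2 had 19.6 CPM in FGF2 early flask 2, above 17.0 to 17.1 CPM. MCM2 had 256 CPM in FL early flask 2, below 292 to 295 CPM. PRIM1 had 67.6 CPM in FL early flask 4, above 52.1 to 54.5 CPM, and CLSPN had 59.9 CPM in the same flask, above 51.9 to 52.8 CPM.

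By the direct edgeR test, the change from parental cells differed between FGF2 early and FL early flasks for 7 members. Each was higher in FGF2 early flasks, where 4.0% of all genes were called higher and 9.56% lower. On the log2 scale the difference was 0.43 for MCM8, 0.32 for LIG1, 0.31 for CDC7, 0.28 for PRIM2, 0.28 for RFC1, 0.26 for WDHD1 and 0.26 for RPA1. Only the MCM8 call held in every alternative run.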

How the results depend on the processing

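All 44 acute against parental calls held under every alternative. Leaving out 1 library at a time gave 44 members lower in acute against parental cells, 43 to 44 higher in early against acute cells, 11 to 22 lower and 1 higher in early against parental cells, 9 to 11 lower and 0 to 1 higher in FGF2 early against parental cells, 9 to 30 lower and 0 to 1 higher in FL early against parental cells, and 1 to 11 higher in FGF2 early against FL early flasks. With only the arms compared, 2 members were higher in FGF2 early and 0 in FL early flasks against parental cells, and 4 in FGF2 early against FL early flasks. Without the low-count filter that last count was 1. No member was higher in FL early against parental cells without both FL early flasks that stood apart or after the GC correction (0 in each). POLD1, not called at 0.17 in that comparison, was lower at -0.26 (adjusted p = 0.0294) after the GC correction, which also moved the median of all genes by -0.11 in early against acute cells. Scaled to total counts, 2 members were higher in the acute culture with FGF2 than with drug alone. With the median transcript length, MCM4 took 7.93% of the MCM2 to MCM7 sum in acute cultures in place of 7.24%. The causes of these shifts were not tested.

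Replicate numbers did not pair the libraries, with correlations of same-numbered deviations from -0.094 to 0.066. With the replicate number as a block, 35 members were lower and 0 higher in FL early, and 2 higher in FGF2 early, against parental cells. Depth limits the acute values of MCM10, CDC45, CDC6, POLE2, CLSPN and GINS2, the 6 members with under 100 counts in every acute library.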
